A study of Mus musculus with 17 samples.

Results

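The genes described here are 10 markers of the alveolar type 1 (AT1) cell, measured in mouse alveolar type 2 (AT2) cells sorted by flow cytometry. The members, Ager, Hopx, Pdpn, Aqp5, Rtkn2, Clic5, Cav1, Emp2, Akap5 and Igfbp2, were chosen by symbol and matched to Ensembl identifiers, and all 10 were found among the 43430 gene identifiers of both count tables. The rule itself uses symbols and no measured value, but the members were chosen with earlier results of these data known.

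All mice were C57BL/6J, 2 months of age. In the ISRIB experiment AT2 cells were taken 24 h after vehicle (4 libraries) or ISRIB (4 libraries) in naive animals, and the libraries were built from poly(A) RNA. ISRIB is a small molecule that counteracts the integrated stress response by acting on the translation factor eIF2B. In the bleomycin experiment AT2 cells came from naive mice (4 libraries) or from mice 14 days after bleomycin (5 libraries), an agent used to injure the lung epithelium, and the libraries were built from total RNA. All 9 of these carry the treatment label vehicle, and their titles say saline. No dose of either agent is stated in the labels, nor the gate of the sort, nor whether a library is 1 mouse or a pool, so p-values measure the spread between these libraries. The kits and RNA inputs differ between experiments, so levels were compared only within a kit.

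AT1 cells are the thin, wide cells across which gas is exchanged, whereas the cuboidal AT2 cells make surfactant and act as progenitors that can give rise to AT1 cells after injury. Cells on that path pass through intermediate states in which keratins such as Krt8 rise. AT1 markers include a pattern receptor, water and ion channel proteins, membrane and caveola proteins, signalling scaffolds and a homeodomain regulator, and several of them are also detected at a low level in AT2 cells or are used by other lung cells.

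Total counts were 10493574 to 15727139 per poly(A) library and 3295257 to 6333166 per total-RNA library. Genes with a count numbered 17108 to 19763 in naive libraries and 13940 (library 4) to 17112 in bleomycin libraries. Mitochondrial and ribosomal RNA genes took 21.8% to 30.5% of the counts in naive and 16.8% to 24.0% in bleomycin libraries, and the same 7 members described below as called were called with these genes removed. Levels are given in CPM (counts scaled to a common library size), scaled by edgeR's TMM factors, as mean ± SD over libraries. Genes were called at an adjusted p under 0.05 from edgeR's quasi-likelihood test, with adjustment over all genes tested. The sort label was checked on Sftpc, the surfactant protein gene that defines AT2 cells. It stood at 38530 ± 2983 CPM (n = 4) in naive cells and 28460 ± 7416 CPM (n = 5) after bleomycin, with a log2 fold change of -0.44 ± 0.18 as SE and an adjusted p of 0.0870. The lysosomal AT2 marker Lamp3 was at 3154 ± 140 and 2921 ± 578 CPM, with an adjusted p of 0.644. A list of 15 AT2 genes summed to 102000 to 107000 CPM in naive libraries. The sums were 62700, 78200, 118000, 93700 and 111000 CPM in bleomycin libraries 1 to 5. In bulk RNA, a change in how many cells of a type were sorted and a change in RNA per cell cannot be told apart.

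Promoter sequence was taken from RefSeq (GRCm38.p6) as the 250 bases before the annotated start, and 9 of the 10 members had an entry. Rtkn2 was the member without one. Shown are the windows of Pdpn and Akap5, whose levels differed most between bleomycin and naive cells, and of Ager, the most abundant member. Capitals mark GC boxes (GGGCGG, on either strand), and the windows lie at chr4:143299565-143299814 on the minus strand for Pdpn, chr12:76324641-76324890 on the plus strand for Akap5 and chr17:34597600-34597849 on the plus strand for Ager.
Pdpn: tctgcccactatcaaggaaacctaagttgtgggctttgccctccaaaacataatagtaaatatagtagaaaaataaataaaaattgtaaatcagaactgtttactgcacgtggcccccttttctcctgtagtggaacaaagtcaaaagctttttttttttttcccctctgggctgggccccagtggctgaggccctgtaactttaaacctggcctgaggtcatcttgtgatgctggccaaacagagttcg
Akap5: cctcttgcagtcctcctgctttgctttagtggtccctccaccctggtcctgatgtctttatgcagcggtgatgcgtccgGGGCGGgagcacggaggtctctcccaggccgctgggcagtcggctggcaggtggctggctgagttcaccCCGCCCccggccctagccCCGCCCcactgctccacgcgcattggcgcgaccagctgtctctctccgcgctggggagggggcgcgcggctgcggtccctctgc
Ager: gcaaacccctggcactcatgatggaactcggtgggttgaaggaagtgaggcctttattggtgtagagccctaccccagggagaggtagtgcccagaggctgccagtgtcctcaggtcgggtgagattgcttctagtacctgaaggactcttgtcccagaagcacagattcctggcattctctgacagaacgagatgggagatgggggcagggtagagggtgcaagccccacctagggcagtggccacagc
The Akap5 window held 3 GC boxes, and the other 2 windows held none. Over all members, 6 of the 12 windows (some genes have several starts) had a GC box, against 32.7% of 32851 promoters of the same length. A TEAD motif (GGAATG) and an NKX2-1 motif (CACTTG) were matched in 0 of the 12 windows, against 12.6% and 11.6% of all promoters. An AP-1 motif (TGANTCA) was matched in 1 window, the second of Igfbp2, against 6.75%. All motifs were read on both strands and none of these letter strings contains another. The GC content ran from 43.2% in Pdpn to 78.4% in Aqp5, with a median of 52.4% over all promoters. A match describes letters only and says nothing of binding.

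In cells taken 14 days after bleomycin, 7 of the 10 AT1 markers rose (Ager, Hopx, Pdpn, Aqp5, Clic5, Emp2 and Akap5), none fell, and for all 7 the lowest value after bleomycin exceeded the highest naive value. The share of genes called was 20.5% of the 11223 tested (11.2% higher and 9.31% lower), the share at an unadjusted p under 0.05 was 33.3%, and the share with non-overlapping groups was 19.7% (10.4% higher and 9.35% lower). Pdpn and Akap5 had the largest folds of the 9 members tested, about 14.0 and 4.27; Pdpn had only 1 to 8 counts in the naive libraries and passed the count filter through the bleomycin group. Rtkn2 and Cav1 did not pass the test, and Igfbp2 fell below the count filter. The median log2 fold change of the 9 members tested was 0.91, beside 0.0026 over all genes tested.

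**Figure D1:**
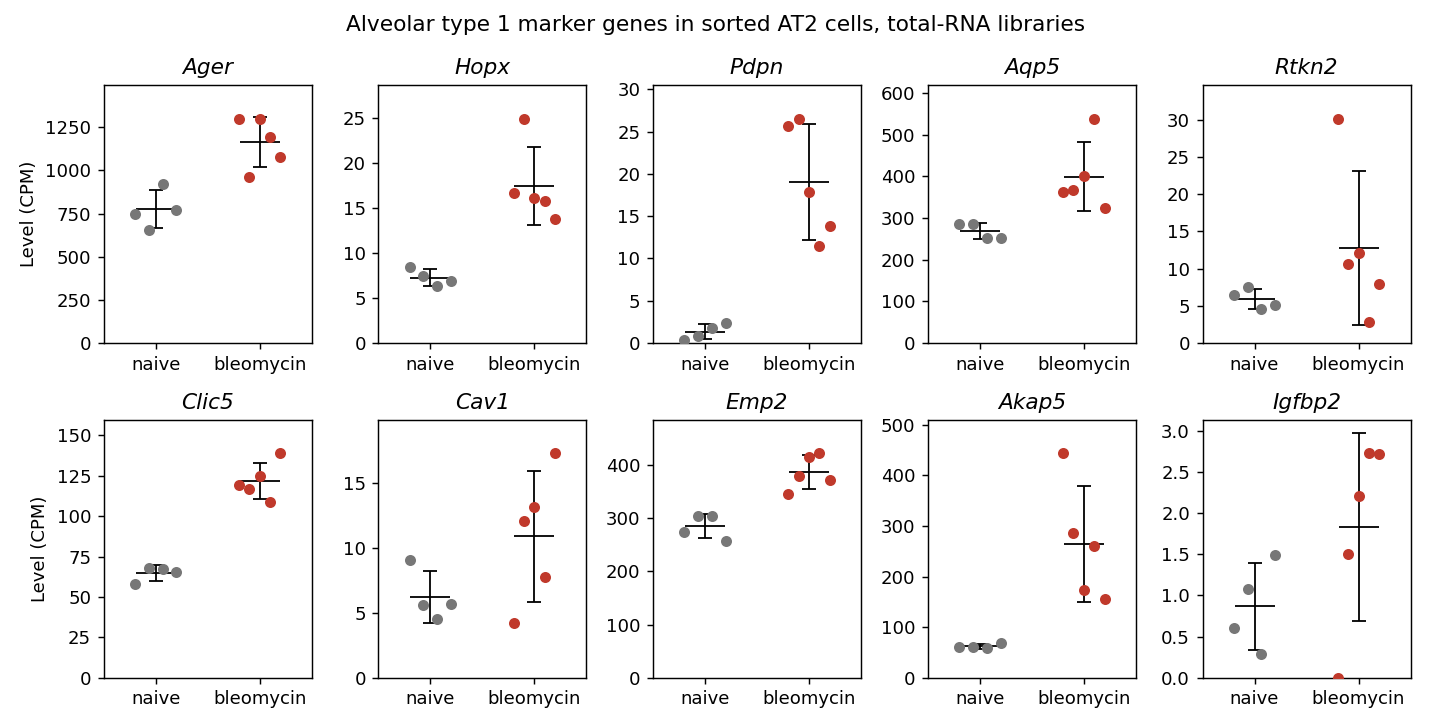
Level of each AT1 marker (vertical axis, CPM) in the 4 naive (grey) and 5 bleomycin (red) total-RNA libraries. Points are libraries, the long line is the mean and the bars are the SD; for 7 genes the groups are separate, while for Rtkn2, Cav1 and Igfbp2 they overlap.

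Ager (ENSMUSG00000015452, chromosome 17, 34597862 to 34600936 in GRCm38) encodes the receptor for advanced glycation end products, a membrane receptor abundant on AT1 cells. Its level was 748, 656, 922 and 769 CPM in the naive libraries and 1296, 962, 1301, 1194 and 1079 CPM in the bleomycin libraries. The lowest bleomycin library was just above the highest naive one. The means were 774 ± 110 and 1167 ± 146 CPM, a log2 fold change of 0.59 (SE 0.13) at an adjusted p of 0.00364. Of 7 genes for ligands of this receptor, 3 were tested and 1 rose, S100a6, a calcium-binding protein, from 13.9 ± 5.59 to 26.4 ± 13.2 CPM (adjusted p = 0.0443).

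The channel and transport genes moved less than Pdpn and Akap5. Aqp5 (ENSMUSG00000044217, chromosome 15, 99590782 to 99594829), which encodes a water channel of the apical membrane, was at 286, 286, 253 and 253 CPM in naive cells and at 363, 368, 402, 539 and 324 CPM after bleomycin. Bleomycin library 4 was the highest, and the lowest bleomycin value stayed above the naive range. The log2 fold change was 0.56 (SE 0.14) at an adjusted p of 0.00687. Clic5 (ENSMUSG00000023959, chromosome 17, 44188584 to 44280172), a chloride intracellular channel protein linked to the actin cortex, was at 57.7, 67.9, 67.6 and 65.6 CPM in naive cells and at 119, 117, 125, 109 and 139 CPM after bleomycin. Both groups were tight and far apart, with a log2 fold change of 0.91 (SE 0.12) at an adjusted p of 2.43e-05. Of the 5 genes of the CLIC family, all tested, 3 rose: Clic5, Clic1 (53.9 ± 4.15 to 87.4 ± 25.5 CPM, adjusted p = 0.00808) and Clic3 (48.1 ± 2.86 to 73.0 ± 8.77 CPM, adjusted p = 0.00250). Of 6 aquaporin genes, 2 were tested and Aqp5 was the 1 called.

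Among the membrane proteins, Pdpn differed most. Pdpn (ENSMUSG00000028583, chromosome 4, 143267431 to 143299564) encodes podoplanin, a mucin-type glycoprotein of the AT1 cell surface that binds ezrin and moesin inside the cell. It was at 0.34, 0.85, 1.80 and 2.38 CPM in naive cells and at 25.7, 26.5, 17.8, 11.5 and 13.8 CPM after bleomycin. The naive libraries held only 1, 4, 6 and 8 counts and the bleomycin libraries 97, 147, 115, 37 and 87, so that the gene passed the filter through the bleomycin group. The fold was 14.0 (95% interval 7.64 to 25.8, adjusted p = 4.93e-06), rank 25 by log2 fold change among all genes tested. Among 5 genes for podoplanin partners, 4 were tested and 2 rose, Msn (moesin), from 231 ± 20.5 to 514 ± 109 CPM (adjusted p = 2.42e-05), and the hyaluronan receptor Cd44, from 163 ± 14.5 to 233 ± 24.4 CPM (adjusted p = 0.00406).

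Emp2 (ENSMUSG00000022505, chromosome 16, 10281749 to 10313968), a tetraspan protein of the plasma membrane, was at 274, 304, 304 and 258 CPM in naive cells and at 346, 380, 416, 422 and 373 CPM after bleomycin. It had the smallest change of the 7 called members, with a log2 fold change of 0.44 (SE 0.11) at an adjusted p of 0.00814 and no overlap of the groups. Of the 4 genes of its family, 3 were tested and only Emp2 was called.

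Cav1 (ENSMUSG00000007655, chromosome 6, 17306335 to 17341452) encodes caveolin-1, the coat protein of caveolae, and is also abundant in endothelial cells. Its level was 9.06, 5.56, 4.50 and 5.66 CPM in naive cells and 4.23, 12.1, 13.2, 7.74 and 17.3 CPM after bleomycin, so bleomycin library 1 lay below every naive library. The log2 fold change was 0.85 (SE 0.36) at an adjusted p of 0.107. Without bleomycin library 1 it was 1.05 (adjusted p = 0.0205), and without library 5 it was 0.63 (adjusted p = 0.267). Of 8 caveola genes, 6 were tested and 3 rose. They include Ehd2, an ATPase of the caveolar neck (63.4 ± 5.43 to 111 ± 17.6 CPM, adjusted p = 2.50e-04), and Cavin1, which is needed to form caveolae (99.3 ± 11.3 to 133 ± 2.75 CPM, adjusted p = 0.00929). Endothelial marker genes summed to 30.9, 72.4, 46.6, 48.5 and 101 CPM in bleomycin libraries 1 to 5. Their lowest and highest libraries were those of Cav1, and the order of the other libraries differed. Library 1 lay within the naive endothelial range of 25.6 to 34.3 CPM. The part of endothelial cells in the Cav1 values was not tested.

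The signalling members split. Akap5 (ENSMUSG00000021057, chromosome 12, 76324891 to 76334153) encodes an anchoring protein that holds protein kinase A and calcineurin near the membrane. It was at 60.4, 60.0, 58.0 and 68.6 CPM in naive cells and at 444, 287, 173, 261 and 156 CPM after bleomycin. The naive libraries were close together, while the bleomycin libraries ranged widely and all lay above them. The fold was 4.27 (95% interval 3.02 to 6.03, adjusted p = 7.92e-06). Of 7 partner genes, 6 were tested and 1 rose, Prkar2a, a regulatory subunit of protein kinase A (115 ± 10.9 to 207 ± 25.97 CPM, adjusted p = 8.29e-05).

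Rtkn2 (ENSMUSG00000037846, chromosome 10, 67979570 to 68059740), a member of the rhotekin family, was at 6.37, 7.48, 4.50 and 5.07 CPM in naive cells and at 30.2, 10.7, 12.1, 2.79 and 7.92 CPM after bleomycin. Bleomycin library 1 was the highest of all 9 and library 4 the lowest. The log2 fold change was 1.10 (SE 0.46) at an adjusted p of 0.100. Without bleomycin library 4 it was 1.33 (adjusted p = 0.0189), and without library 1 it was 0.54 (adjusted p = 0.336). The antisense gene Gm16212, which overlaps 216 exon bases, had 1 count over all 9 libraries. The paralog Rtkn fell, from 138 ± 12.5 to 92.8 ± 13.5 CPM (adjusted p = 0.00334).

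Hopx (ENSMUSG00000059325, chromosome 5, 77086988 to 77115121) encodes a small homeodomain protein without DNA binding that is used to trace AT1 cells. It was at 8.39, 7.48, 6.31 and 6.86 CPM in naive cells and at 16.7, 24.9, 16.1, 15.8 and 13.8 CPM after bleomycin. Library 2 stood above the other bleomycin libraries, and the groups were separate. The log2 fold change was 1.27 (SE 0.24) at an adjusted p of 0.00117. A stretch of 412 exon bases overlaps the antisense gene Hopxos, and that gene had 5 counts over the naive and 5 over the bleomycin libraries, against 104 and 443 for Hopx. Since the strand setting was not given, these counts do not show whether Hopx reads in the shared bases were affected. The same holds for Rtkn2 and Gm16212.

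Igfbp2 (ENSMUSG00000039323, chromosome 1, 72824503 to 72852474), a secreted insulin-like growth factor binding protein that marks late AT1 cells, had 2, 5, 1 and 5 counts in naive and 0, 8, 14, 9 and 16 in bleomycin libraries. The groups overlapped and the gene was not tested with the filter. With no filter its log2 fold change was 1.01 and its adjusted p was 0.414, so a difference was not detectable at this depth. Of the 7 genes of its family, 3 were tested. Igfbp5 rose, from 8.94 ± 4.28 to 62.3 ± 51.6 CPM (adjusted p = 4.54e-04), and Igfbp6 fell, from 32.3 ± 3.93 to 8.36 ± 4.44 CPM (adjusted p = 1.74e-04).

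Relative to exon length, naive levels were in the order Ager (350 CPM per kilobase), Aqp5 (100.5), Emp2 (32.0), Akap5 (8.78), Clic5 (7.16), Hopx (4.63), Cav1 (1.73), Rtkn2 (1.02), Pdpn (0.73) and Igfbp2 (0.47). The ranges of neighbours overlapped for Cav1 and Rtkn2, for Rtkn2 and Pdpn, and for Pdpn and Igfbp2, and were apart for the others. After bleomycin Pdpn stood at 10.6 CPM per kilobase, between Hopx at 11.7 and Cav1 at 3.26. Measured against the AT2 gene Sftpc, the counts of the members together came to between 3.38% and 4.39% of the Sftpc counts in naive libraries and to between 6.44% and 13.7% after bleomycin. The ratio also varies with Sftpc. Bleomycin libraries 1 and 3 stood at 13.7% and 6.44% with similar member sums of 2571 and 2526 CPM. The summed level of the members was 1312 to 1570 CPM in naive and 2276 to 2571 CPM in bleomycin libraries, without overlap.

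A wider list of 30 other AT1 genes was all tested. In it, 17 rose and 1 fell, the median log2 fold change was 0.63, and 28 of the 30 were above 0. Sema3a, a guidance ligand, went from 2.35 ± 1.28 to 11.2 ± 4.62 CPM (adjusted p = 9.32e-04). At that naive mean it could pass the count filter only with the bleomycin libraries. Scnn1g, a subunit of the epithelial sodium channel, went from 4.42 ± 0.62 to 16.5 ± 5.61 CPM (adjusted p = 1.96e-04), and Sema3e from 4.86 ± 1.32 to 18.0 ± 15.03 CPM (adjusted p = 0.0149). The gene that fell was Cyp2b10, a cytochrome P450, from 43.5 ± 10.1 to 27.1 ± 7.09 CPM (adjusted p = 0.0193).

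**Figure D2:**
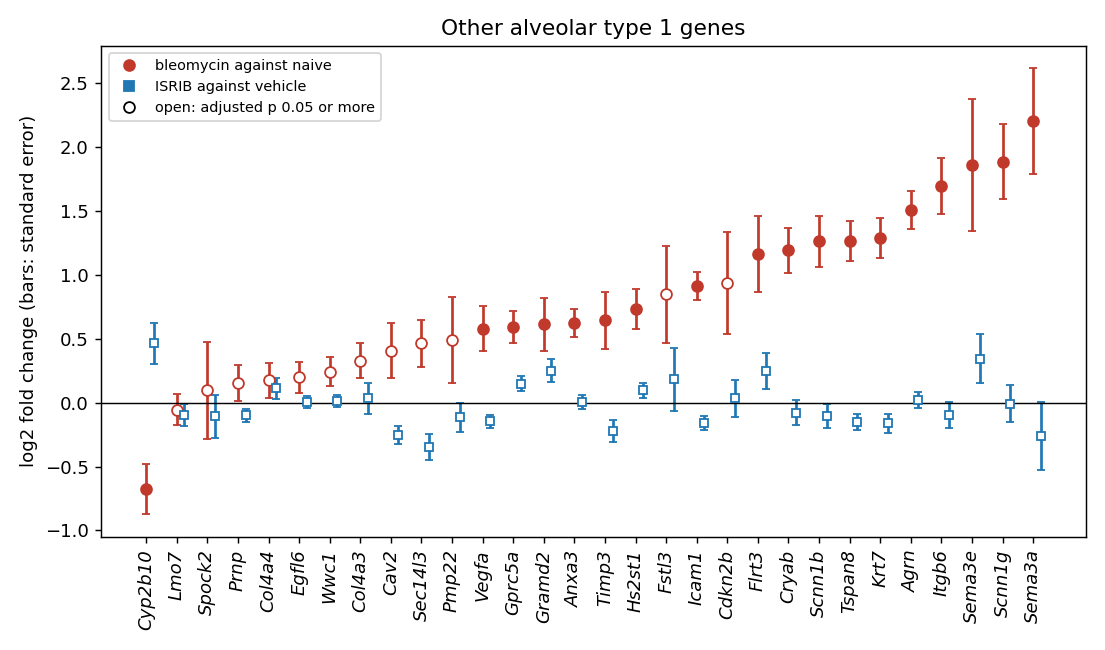
Log2 fold change (vertical axis, bars are the standard error) of the 30 other AT1 genes after bleomycin (red circles) and after ISRIB (blue squares), ordered by the bleomycin value. After bleomycin 17 are called higher and Cyp2b10 lower, and after ISRIB all symbols are open because no gene is called.

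Of 14 regulators of AT1 identity, 13 were tested and 4 were called. Wwtr1, which encodes the TEAD coactivator TAZ, rose from 57.1 ± 6.27 to 77.8 ± 14.1 CPM (adjusted p = 0.0319), whereas its paralog Yap1 had a log2 fold change of -0.21 (adjusted p = 0.211). The lung lineage factor Nkx2-1 fell from 371 ± 14.3 to 269.9 ± 30.5 CPM (adjusted p = 0.00685). Foxa1 fell by 0.58 and Gata6 by 0.45 on the log2 scale (adjusted p = 0.00729 and 0.0342).

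Genes of the transitional epithelial state also rose after bleomycin. Of 16, 15 were tested, 13 rose and 1 fell, with a median log2 fold change of 1.17. Krt8 went from 156 ± 18.2 to 337 ± 44.3 CPM (adjusted p = 7.33e-06) and Sfn, also called stratifin, from 33.6 ± 5.37 to 69.6 ± 22.1 CPM (adjusted p = 0.00174). The tight junction gene Cldn4 rose from 0.52 ± 0.26 to 11.1 ± 8.79 CPM, the cell cycle inhibitor Cdkn1a from 16.7 ± 2.64 to 82.0 ± 24.99 CPM, and Clu, a chaperone, from 103 ± 4.32 to 466 ± 61.4 CPM (adjusted p = 7.91e-05, 9.95e-07 and 6.92e-09). At its naive level Cldn4 passed the count filter only through the bleomycin group, as Pdpn did. Nupr1, a stress-response gene, fell from 172 ± 22.8 to 97.4 ± 24.1 CPM (adjusted p = 0.00119). Of 15 AT2 genes, 3 rose and 1 fell, with a median of -0.11. They were Muc1, a surface mucin, Sftpd and Napsa, with log2 fold changes of 0.68, 0.58 and 0.40, and Etv5, a transcription factor, at -0.43 (adjusted p = 4.11e-04, 0.0133, 0.0425 and 0.0199).

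Markers of other lung cells differed between the groups too. Summed endothelial markers (10 genes) were at 33.4, 28.6, 34.3 and 25.6 CPM in naive libraries and at 30.9, 72.4, 46.6, 48.5 and 101 CPM after bleomycin, and 3 of the 6 tested rose (Vwf, Cdh5 and Ptprb). Cdh5, VE-cadherin, had an adjusted p of 0.0183, and Pecam1 one of 0.435. Summed fibroblast markers (10 genes) ran from 5.1 to 13 CPM in naive and from 19.6 to 131 CPM in bleomycin libraries. The collagen genes Col1a1, Col1a2 and Col3a1 rose, 3 of the 4 tested, and Pdgfra had 1 to 12 counts per library and was below the filter. All 10 fibroblast genes together had 17 to 43 counts per naive library, so passing the filter depended largely on the bleomycin libraries. Mesothelial markers summed to 0.291 to 5.37 CPM in naive and 3.34 to 21.4 CPM in bleomycin libraries. Msln rose (adjusted p = 0.0114), the 1 tested of 4 in the table, and Upk3b was below the filter. Msln also passed the filter through the bleomycin group, since the 4 genes together had 1 count each in naive libraries 3 and 4. Airway markers summed to 488 to 927 CPM and 578 to 1070 CPM. The ciliated-cell genes Foxj1 and Ccdc153 rose (adjusted p = 0.00440 and 0.0181), 2 of 7 airway genes tested, while the club-cell gene Scgb1a1 had an adjusted p of 0.610. Macrophage markers summed to 10.5 to 14.4 CPM in naive and 10.5 to 15.4 CPM in bleomycin libraries, with 0 of 3 tested called and Ptprc and Adgre1 below the filter. Lymphocyte markers were all below the filter, summing to at most 1.52 CPM in naive and 0.606 CPM in bleomycin libraries, and Cd3e had counts in 1 library. The part of these cells in the AT1 marker levels was not tested.

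**Figure D3:**
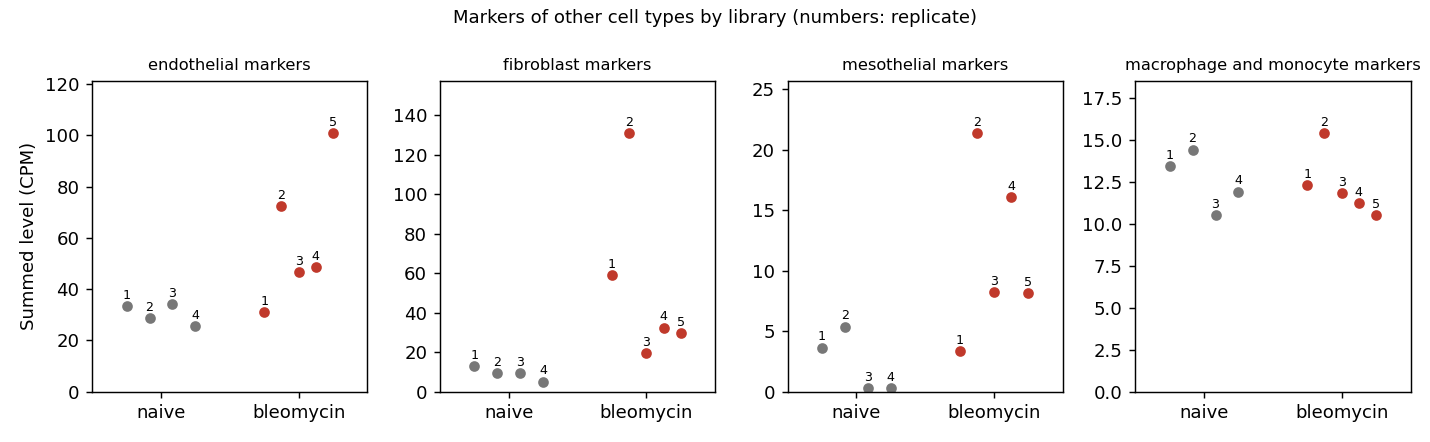
Summed level (vertical axis, CPM) of the marker genes of 4 other cell types in each naive (grey) and bleomycin (red) library, with replicate numbers beside the points. Fibroblast markers are higher in all bleomycin libraries (19.6 to 131 CPM) than in naive ones, endothelial markers reach 101 CPM in bleomycin library 5, and macrophage markers overlap.

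Podoplanin is also made by mesothelial cells and some fibroblasts. Beside the Pdpn levels of 25.7, 26.5, 17.8, 11.5 and 13.8 CPM in bleomycin libraries 1 to 5, mesothelial markers summed to 3.34, 21.4, 8.21, 16.1 and 8.14 CPM and fibroblast markers to 58.9, 131, 19.6, 32.4 and 29.5 CPM. The naive sums were at most 5.37 and 13 CPM, so the fibroblast sum was above the naive range in all 5 libraries and the mesothelial sum in 4. Their part in the Pdpn level was not tested. In a fit without bleomycin libraries 2 and 5, chosen after seeing the data, the same 7 members were called and the median log2 fold change was 0.87. These 2 libraries had the highest endothelial sums, 72.4 and 101 CPM. The 3 libraries kept still had fibroblast sums of 19.6 to 58.9 CPM and mesothelial sums of 3.34 to 16.1 CPM. That fit therefore does not remove the difference in these markers. In the same fit Cav1 had a log2 fold change of 0.49 (adjusted p = 0.474). Library 5, the highest for Cav1, was left out and library 1, the lowest, was kept, so that value follows in part from the choice.

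After ISRIB no AT1 marker was called. All 10 members were tested, and edgeR called 0 of them, with 1 (Emp2) at an unadjusted p under 0.05. DESeq2 called 0 of the 8 to which it gave an adjusted p, and limma-voom called 0. Over all genes, 2.20% of 12054 were called (1.10% higher and 1.10% lower), and 16% had an unadjusted p under 0.05. The median log2 fold change of the members was -0.06, beside -0.00014 over all genes. Whether the 2 experiments differ was not tested, since the kits differ.

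**Figure D4:**
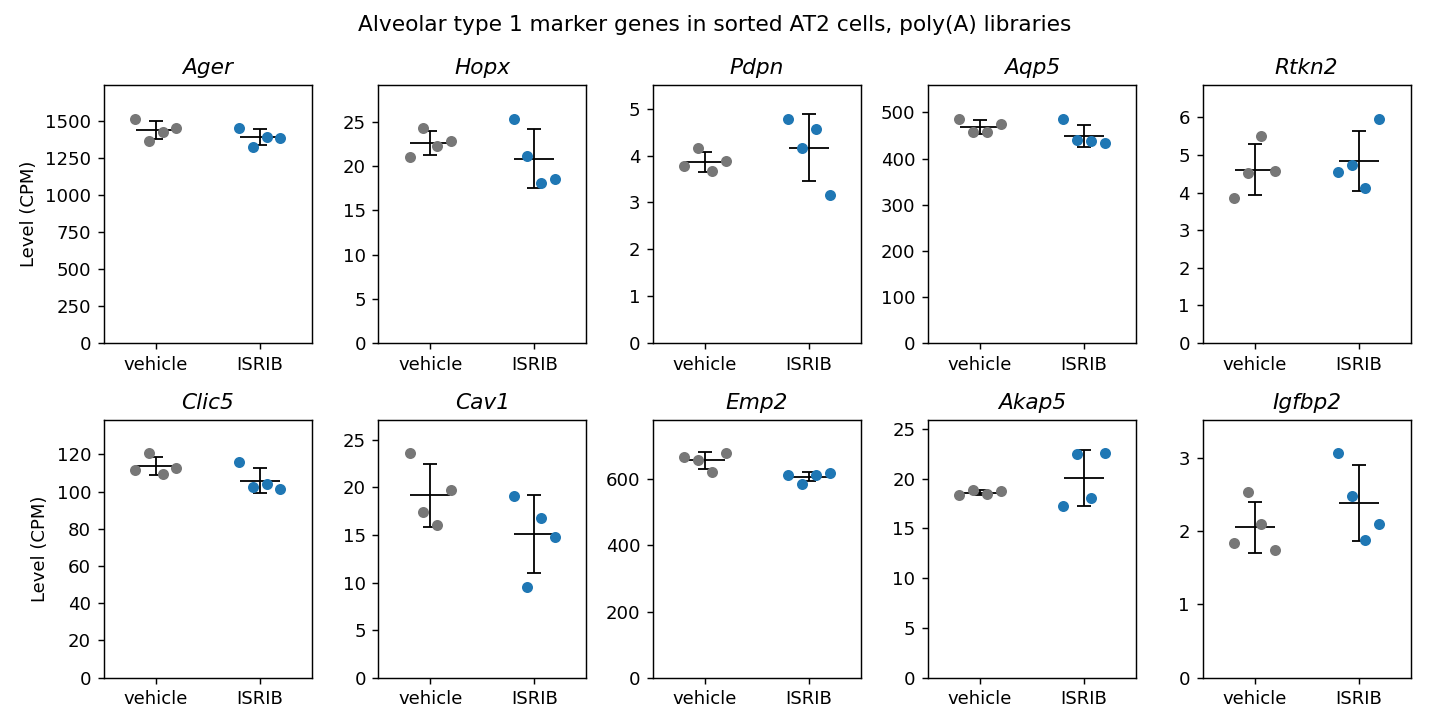
Level of each AT1 marker (vertical axis, CPM) in the 4 vehicle (grey) and 4 ISRIB (blue) poly(A) libraries, with the mean as a long line and the SD as bars. The groups overlap for 9 genes, and for Emp2 all ISRIB libraries are below the vehicle libraries.

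Ager was at 1516, 1364, 1424 and 1452 CPM with vehicle and at 1454, 1323, 1392 and 1387 CPM with ISRIB, and the groups overlapped. The fold was 0.965 (95% interval 0.895 to 1.04, adjusted p = 0.702). Aqp5 was at 487, 457, 457 and 475 CPM with vehicle and at 485, 441, 437 and 433 CPM with ISRIB, with an interval of 0.888 to 1.03 and an adjusted p of 0.622. For these 2 abundant genes the intervals were narrow.

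Emp2 was at 668, 660, 622 and 679 CPM with vehicle and at 615, 587, 612 and 618 CPM with ISRIB. It is the member whose groups did not overlap, a property of 8.65% of all genes tested (4.26% higher and 4.39% lower). The log2 fold change was -0.11 (SE 0.05), at an adjusted p of 0.265 and an unadjusted p of 0.0347. Cav1 was at 23.6, 17.4, 16.1 and 19.7 CPM with vehicle and at 19.2, 9.53, 16.8 and 14.7 CPM with ISRIB, with ISRIB library 2 lowest, a fold interval of 0.623 to 1.01 and an adjusted p of 0.338. Clic5 went from 114 ± 4.85 to 106 ± 6.67 CPM (adjusted p = 0.420).

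The remaining members were low. Hopx was at 22.7 ± 1.36 and 20.9 ± 3.33 CPM, Akap5 at 18.6 ± 0.26 and 20.1 ± 2.83 CPM, Rtkn2 at 4.61 ± 0.68 and 4.84 ± 0.80 CPM, Pdpn at 3.87 ± 0.21 and 4.17 ± 0.72 CPM and Igfbp2 at 2.06 ± 0.35 and 2.38 ± 0.52 CPM. Their adjusted p-values lay between 0.663 and 0.927. The widest interval was that of Igfbp2, with a fold of 0.818 to 1.68, so changes within it were not detectable at this depth. Per kilobase of exon, the vehicle order was Ager (668 CPM per kilobase), Aqp5, Emp2, Hopx (14.8), Clic5 (12.9), Cav1 (5.54), Akap5 (2.71), Pdpn (2.12), Igfbp2 (1.11) and Rtkn2 (0.83), and only the last 2 overlapped.

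Among the related genes after ISRIB, 0 of 30 other AT1 genes were called, with 10 at an unadjusted p under 0.05, and 0 of 6 caveola genes tested were called. Of 14 regulators, Lats2, a Hippo pathway kinase, rose from 44.7 ± 2.95 to 57.8 ± 3.64 CPM (adjusted p = 0.00968). Rtkn, the paralog of Rtkn2, fell from 57.4 ± 3.67 to 47.4 ± 2.92 CPM (adjusted p = 0.0430). In the transitional list Hbegf, Krt19 and Sprr1a fell (adjusted p = 0.00677, 0.0170 and 0.0241), 3 of 16 tested, and Etv5 was the 1 AT2 gene that fell (adjusted p = 0.00817). Summed endothelial markers were at 41.7 to 65.5 CPM with vehicle and 53.2 to 58.9 CPM with ISRIB, with 0 of 9 tested called. Fibroblast markers were at 18.3 to 27.6 and 15 to 26.8 CPM, with 0 of 5 called, and airway markers at 3870 to 4340 and 2460 to 4260 CPM, where Tppp3 fell (adjusted p = 0.00384), 1 of 8.

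**Figure D5:**
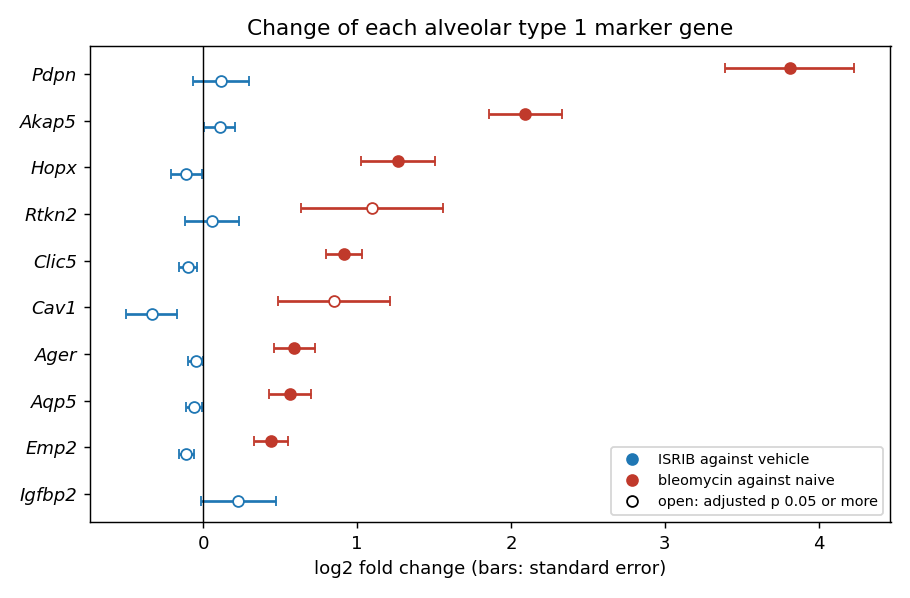
Log2 fold change of each AT1 marker (horizontal axis, bars are the standard error) after ISRIB (blue) and after bleomycin (red), with open symbols where the adjusted p is 0.05 or more. Pdpn (3.81) and Akap5 (2.09) are highest after bleomycin, and every ISRIB symbol is open.

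The gene profiles most like that of Ager were found as the smallest root mean square difference of log2 CPM from the control mean. In the poly(A) table they were Gtf2i (0.0286), Eif2d (0.0311) and Ttc38 (0.0312), over 8 libraries and 9545 genes, and Aqp5 was at rank 20. In the total-RNA table they were Rab11fip1 (0.106), Bicd2 (0.115) and Otud3 (0.128), over 9 libraries and 9665 genes, and the closest member, Emp2, was at rank 142. Among the members after bleomycin, Aqp5 and Emp2 were closest to each other (0.177), and Pdpn was 2.27 from Ager. In the poly(A) libraries Ager lay only -0.12 to 0.08 from its vehicle mean, so genes that changed little rank close there. The measure includes the size of a change, so closeness does not show that genes vary together.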

How the data were processed

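RNA was sequenced from 17 libraries of sorted AT2 cells. The authors deposited raw counts, 1 table per kit, each with 43430 gene identifiers; the submitters' processing notes name bcl2fastq 2.19.1, FastQC, Trimmomatic 0.36, STAR 2.6.0, HTSeq 0.11.2 and mm10, without settings. Annotation and strand setting were not given in the sources used here. Whether reads in bases shared with antisense genes were counted is therefore not known. Per the labels, RNA came from the PicoPure kit, 3 ng was used with NEBNext Ultra after poly(A) selection, and 0.35 ng with the SMARTer Stranded Total RNA Pico v2 kit, all on a NextSeq 500.

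Symbols, positions and exon lengths came from GENCODE M21 (GRCm38), which named 42546 identifiers. In R 4.3.3, edgeR 4.0.16 was used within each kit. Low genes were removed by filterByExpr (by group, at least 10 counts and a total of 15), libraries were scaled by TMM, and group was fitted alone by the quasi-likelihood method (two-sided). Benjamini-Hochberg adjustment covered all tested genes, with 0.05 as threshold. Marker sums, member sums and levels per kilobase use raw library totals without the TMM factors. The SE is the log2 fold change over the root of F. On simulated counts with a log2 change of 1, 86.5% of the changed genes were called at the ISRIB design and 64.6% at the bleomycin design. With a change of 0.5 it was 65.5% and 6.19%. The share of calls that were false was 3.89% and 8.57% at a change of 1, and 7.75% and 0% at 0.5. Alternatives were RLE scaling, DESeq2 1.42.0, limma-voom 3.58.1, no filter, a replicate block, removal of mitochondrial and ribosomal RNA genes, and leaving out each library.

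The members and gene lists were chosen with earlier results of these data known. Named from each other list were up to 3 called genes per direction by fold change whose mean reached 5 CPM, and 2 defining markers per other cell type, of which 1 is not reported here; Yap1 was added after its value was seen.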

Additional observations from a re-analysis of the deposited data

Results flagged for a closer look

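In all, 2 libraries stood apart from the rest of their group by Dixon's ratio, among 40 groups of libraries examined for the members; chance gives about 1 in 20. Aqp5 was at 485.0 CPM in ISRIB library 1, where the other ISRIB libraries lay between 433.0 and 441.2 CPM. Hopx was at 24.9 CPM in bleomycin library 2, where the others lay between 13.8 and 16.7 CPM. Library 2 also had the highest summed fibroblast (131 CPM) and mesothelial (21.4 CPM) markers, and their part in the Hopx value was not tested.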

How the results depend on the processing

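After bleomycin 7 or 8 members were called under all 16 settings, and the same 7 in each. Rtkn2 was added with no filter (log2 fold change 1.12, adjusted p = 0.00759) or without bleomycin library 4, and Cav1 without bleomycin library 1. In other settings the adjusted p reached 0.336 for Rtkn2 and 0.474 for Cav1. The members' median log2 fold change ranged from 0.87 to 1.07 when 1 library was left out, highest without naive library 1. After ISRIB 0 members were called under all 14 settings. Cav1 came closest, with a log2 fold change of -0.34 and an adjusted p of 0.0513 with no filter, and its adjusted p reached 0.639 in other settings. The count of all genes called after ISRIB was 265, and 648 with no filter; leaving out 1 library gave 86 (without vehicle library 1) to 269, with 102 without vehicle library 2 and 159 without ISRIB library 4. Rtkn2 after ISRIB ranged from -0.054 (without ISRIB library 4) to 0.16 when 1 library was left out, and was -0.02 without vehicle library 1. The cause was not tested. The replicate numbers did not pair the libraries (correlations of deviations -0.109 to 0.0849 and -0.0393 to 0.0474, with 3 of 8 and 1 of 8 libraries closest to their own number). With the replicate block 277 genes and 0 members were called after ISRIB, and 2187 genes and 7 members after bleomycin. At the depth of the total-RNA libraries Igfbp2 had 0 to 16 counts per library and Pdpn 1 to 8 per naive library.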
